A study of Mus musculus with 8 samples.

Results

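Wnt signalling keeps mesenchymal precursor cells from becoming fat cells and steers them toward bone, and GATA2, a zinc finger transcription factor, likewise holds fat cell precursors back from maturing. The genes described here are 9 genes of the Wnt pathway out of 21631 protein-coding mouse genes. They are the receptor genes Lgr4, Fzd6, Fzd7 and Ryk, the cytoplasmic scaffold gene Axin2, and the nuclear effector genes Tcf7, Tcf7l1, Tcf7l2 and Lef1. They were named as a set after an earlier look at the same lists: the presence, position, width and sharing of GATA2 peaks near Wnt genes were the values they were chosen by. Which of them have a peak is therefore a description of the lists and carries no test.

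In this pathway secreted Wnt proteins bind Frizzled receptors at the cell surface, and R-spondins acting through Lgr receptors keep Frizzleds from being removed. Without a Wnt signal a destruction complex built on Axin proteins degrades beta-catenin. With the signal, beta-catenin enters the nucleus and turns the DNA-binding Tcf/Lef proteins from repressors into activators.

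GATA2 binding was mapped by chromatin immunoprecipitation and sequencing (ChIP-seq) in 2 unmodified mouse cell lines: 3T3-L1, preadipocytes already committed to fat, and C3H10T1/2, embryonic fibroblasts that can still become fat, bone, cartilage or muscle. The labels give 2 ChIP libraries with a GATA2 antibody and 2 input libraries without antibody for each line, all from cells at passages 4 to 6 grown as the provider advises, with no treatment or differentiation named. Each immunoprecipitation used about 100 µg of chromatin and 10 µg of antibody, and DNA of individual immunoprecipitations was pooled before library preparation. What was analysed is 1 peak list per line, with positions only: 2445 peaks in 3T3-L1 (median width 144 bp) and 1557 in C3H10T1/2 (median width 184 bp). No value below has a replicate, read depth is unknown, and expression was not measured, so the identity of the cells could not be checked against marker genes. All positions are mm10, counted from 1.

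GATA2 peaks lay near 7 of the 9 genes, and mostly at a distance. Within 100 kb of the gene, the body included, 7 genes had a 3T3-L1 peak, where 13.9% of all protein-coding genes did, and 6 had a C3H10T1/2 peak, where 12.1% did. The 6 genes were Lgr4, Fzd6, Ryk, Axin2, Tcf7l1 and Tcf7l2, each with peaks of both lines, against 6.35% of all genes. Fzd7 had a 3T3-L1 peak alone (7.54% of all genes), and no gene of the set had a C3H10T1/2 peak alone (5.70%). A site shared by the lines lay in the window of 5 genes (5.36% of all genes), which were Lgr4, Fzd6, Ryk, Axin2 and Tcf7l2. Tcf7 and Lef1 had no peak in either line. The choice of the genes fixes these counts, so nothing is read from them against the background shares.

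Inside the genes the lines differed in what they held. In 3T3-L1 only the body of Lgr4 contained a peak (1 of 9 genes; 2.79% of all genes), while in C3H10T1/2 those of Lgr4, Tcf7l1 and Tcf7l2 did (3 of 9; 2.59%). The 10 kb flanks added no further gene in either line (3.96% and 3.64% of all genes have a peak in the body or this flank). The peaks of Tcf7l1 and Tcf7l2 inside the body came from C3H10T1/2 alone, as for 1.41% of all genes. A longer body has more room for a peak, and Lgr4, Tcf7l1 and Tcf7l2 span 96.6, 163 and 192 kb. Lef1, at 114 kb, is longer than Lgr4 and had no peak in its body in either line. A part of length in these counts was not tested. The shares of all genes in this paragraph are over genes of any length and were not matched to these spans. When only peaks of at least their list's median width were kept, 1 gene (Lgr4) had a peak in the body or flank in 3T3-L1. In C3H10T1/2 0 genes did, so the difference between the lines reversed under this cut. With 1 list per line the difference between the lines could not be set against the spread between cultures.

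**Figure D1:**
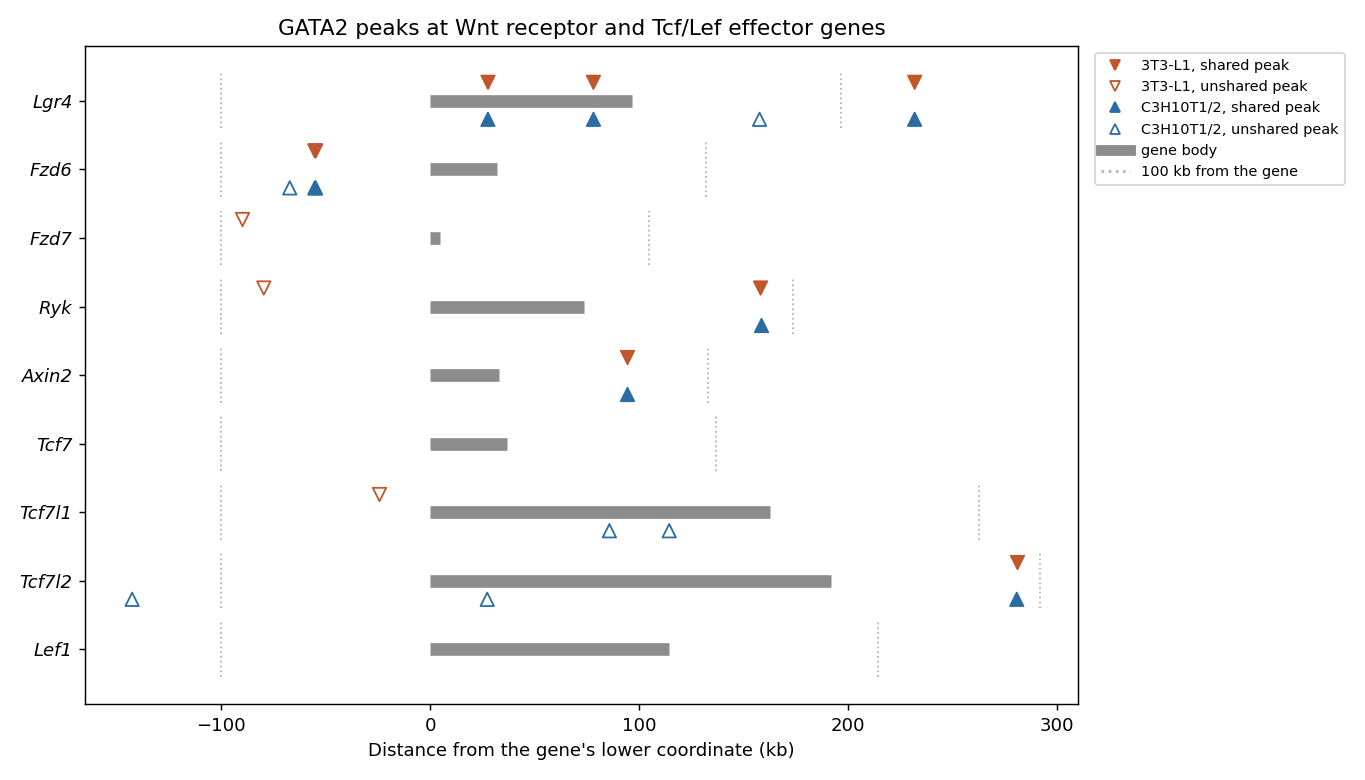
Positions of GATA2 peak centres along each gene, in kb from the gene's lower coordinate in the direction of the chromosome; grey bars are gene bodies, dotted lines mark 100 kb beyond each gene, triangles pointing down are 3T3-L1 peaks and triangles pointing up C3H10T1/2 peaks, filled where the lists overlap. The 2 shared sites of Fzd6 lie too close together to be told apart at this scale; Lgr4 is the gene with shared sites inside its body, and Tcf7 and Lef1 have no peak in the window.

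The sequences just before the transcription starts of the 3 genes with a peak in the body are shown first, because no peak of the set reached a start. With them is 1 of the starts of Lef1, picked because its window holds a match to the letters searched. RefSeq (GRCm38.p6) lists starts for 8 of the 9 genes, and of the peaks counted above, 10 in 3T3-L1 and 12 in C3H10T1/2, none overlapped a listed promoter window of any gene. Over the whole lists 1.6% of 3T3-L1 peaks and 2.89% of C3H10T1/2 peaks did. The 250 bases before each start were searched on both strands for the core letters that GATA factors bind: AGATAA, its form with a final G (AGATAG), the form with a first T (TGATAA) and the form with both (TGATAG), and no other motif was searched. They occurred in 2 of the 13 windows of these genes and in 26.5% of 32619 such windows genome-wide. Matches are in capitals, and each sequence reads 5′ to 3′ on the gene's strand. A match is a run of letters, not a bound site.
Lgr4, chr2:109917397-109917646, plus strand: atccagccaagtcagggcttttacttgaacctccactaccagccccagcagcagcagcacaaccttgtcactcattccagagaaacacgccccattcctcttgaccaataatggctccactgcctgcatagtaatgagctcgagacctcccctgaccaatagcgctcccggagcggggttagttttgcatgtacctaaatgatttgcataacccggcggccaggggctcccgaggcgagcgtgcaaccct
Tcf7l1, chr6:72789046-72789295, minus strand: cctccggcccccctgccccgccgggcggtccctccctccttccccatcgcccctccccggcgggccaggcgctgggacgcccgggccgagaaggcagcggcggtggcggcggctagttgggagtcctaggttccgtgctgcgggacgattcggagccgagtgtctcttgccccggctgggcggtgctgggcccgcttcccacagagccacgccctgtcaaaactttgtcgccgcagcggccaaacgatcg
Tcf7l2, first start, chr19:55741560-55741809, plus strand: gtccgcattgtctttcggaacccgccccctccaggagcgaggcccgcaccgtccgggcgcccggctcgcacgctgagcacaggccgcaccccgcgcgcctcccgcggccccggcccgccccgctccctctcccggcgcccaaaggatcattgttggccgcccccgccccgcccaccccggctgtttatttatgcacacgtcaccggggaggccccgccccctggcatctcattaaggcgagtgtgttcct
Tcf7l2, internal start, chr19:55895071-55895320, plus strand: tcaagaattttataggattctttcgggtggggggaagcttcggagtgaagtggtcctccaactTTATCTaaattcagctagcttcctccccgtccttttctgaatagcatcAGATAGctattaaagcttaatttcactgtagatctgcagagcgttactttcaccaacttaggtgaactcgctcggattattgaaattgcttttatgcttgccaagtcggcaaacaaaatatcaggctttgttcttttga
Lef1, internal start, chr3:131156044-131156293, plus strand: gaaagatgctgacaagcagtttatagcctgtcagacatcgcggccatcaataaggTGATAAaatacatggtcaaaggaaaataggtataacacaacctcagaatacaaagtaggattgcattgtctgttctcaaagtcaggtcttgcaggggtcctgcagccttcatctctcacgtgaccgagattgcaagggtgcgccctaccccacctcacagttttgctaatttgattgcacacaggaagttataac

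Both windows with a match belong to internal starts of Tcf/Lef genes. The internal start of Tcf7l2 holds TTATCT and AGATAG, whose first bases lie at -187 and -139, counted from the start. The internal start of Lef1 holds TGATAA at -195. The nearest C3H10T1/2 peak lay 126 kb from the internal start of Tcf7l2 and 647 kb from that of Lef1. These windows have a G and C content of 40.8% and 44.8%, against 55.6% at Lgr4, 73.6% at Tcf7l1 and 72.8% at the first start of Tcf7l2. The peak sequences themselves are not shown, because no genome sequence was used.

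Among the receptors, Lgr4, which encodes a receptor for R-spondins, was the one with peaks in its body. The gene spans 96.6 kb on chromosome 2 (109917647 to 110014257, plus strand). Its first site lay 27.7 kb from the start, where the 3T3-L1 peak ran from 109945284 to 109945375 (92 bp) and the C3H10T1/2 peak from 109945215 to 109945340 (126 bp). The overlap at this site was 57 bp.

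The other site inside Lgr4 lay 78.1 kb from the start, 80.9% of the way along the gene. There the 3T3-L1 peak ran from 109995693 to 109995845 (153 bp) and the C3H10T1/2 peak from 109995726 to 109995851 (126 bp), overlapping by 120 bp. Both peaks of both lines were thus shared, at sites 50.4 kb apart in 3T3-L1. Of all protein-coding genes, whatever their length, 15 (0.0693%) had at least 2 shared 3T3-L1 peaks in the body. This cutoff was chosen after the values of Lgr4 were seen.

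Downstream of Lgr4 the C3H10T1/2 list went on alone. A peak from 110075176 to 110075312 (137 bp) lay 61.0 kb past the gene's end, inside Ccdc34 and the lncRNA gene Gm30258, at 74.2 kb from any 3T3-L1 peak. Just outside the 100 kb window, 135 kb past Lgr4 and still inside Ccdc34, the lines shared a further site (110149412 to 110149500 in 3T3-L1). Its C3H10T1/2 peak was 360 bp wide, wider than 95.5% of that list, while its 3T3-L1 peak was 89 bp wide, wider than 12.8%.

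Fzd6, a Frizzled receptor known for its part in planar cell polarity, had 2 peaks in the 3T3-L1 list and 3 in the C3H10T1/2 list within 100 kb, and none closer than 54.8 kb. The gene lies on chromosome 15 (39006149 to 39038192). The 3T3-L1 peaks ran from 38950891 to 38951030 and from 38951325 to 38951454. The C3H10T1/2 list had 38950847 to 38951086 and 38951293 to 38951435 at the same sites, so both were shared.

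These 2 shared sites formed a tight pair, with centres 0.429 kb apart in 3T3-L1 and 0.398 kb apart in C3H10T1/2. Outside dense runs of peaks, 12 of 538 shared 3T3-L1 peaks (2.23%) and 6 of 539 shared C3H10T1/2 peaks (1.11%) had another shared peak within 500 bp, a distance chosen after this pair was seen. The pair straddles the upper end of Baalc (38933909 to 38951264), a gene first known from leukaemia: its lower peaks are centred inside Baalc and its upper ones 0.126 kb and 0.1 kb beyond it. The third C3H10T1/2 peak, 38938910 to 38939046, lay inside Baalc and 67.2 kb from Fzd6, and overlapped no 3T3-L1 peak.

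Fzd7, a Frizzled receptor of stem and progenitor cells, had the fewest peaks of the receptors. Its single peak, 59391846 to 59391975 in 3T3-L1, lay 90.2 kb upstream of the gene (chromosome 1, 59482147 to 59486955). Cdk15, a kinase gene, was nearer to this peak, at 39.4 kb. No C3H10T1/2 peak lay within 100 kb, and the first one, 212 kb upstream inside Cdk15, was shared with 3T3-L1.

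Ryk, a receptor outside the Frizzled family that binds Wnts through a WIF domain, had peaks on both sides. The gene lies on chromosome 9 (102834920 to 102908307, plus strand). On its downstream side, 84.7 kb past its end, the lines shared a site with peaks from 102992939 to 102993078 in 3T3-L1 (140 bp) and from 102992901 to 102993146 in C3H10T1/2 (246 bp). This site lay in the lncRNA gene Gm31434, 14.1 kb from Slco2a1, which encodes a prostaglandin transporter.

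On the upstream side of Ryk a peak of 3T3-L1 alone ran from 102755294 to 102755376, 79.6 kb before the gene and within the lncRNA gene Gm5627. At 83 bp it was the narrowest of the set, wider than 8.63% of its list. Amotl2, which encodes an angiomotin family protein, was closer to it than Ryk, at 21.9 kb.

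Axin2 encodes a scaffold of the destruction complex and is itself a widely used target gene of the pathway, which makes it a feedback inhibitor. It had 1 site, shared, 61.1 kb past its end (chromosome 11, 108917828 to 108950783, plus strand). The 3T3-L1 peak ran from 109011814 to 109011937 (124 bp) and the C3H10T1/2 peak from 109011744 to 109012007 (264 bp). The centres coincided to the base, the narrower peak lay wholly within the wider, and the C3H10T1/2 peak was wider than 83.2% of its list. The site falls in the lncRNA gene Gm36876, and Axin2 is the nearest protein-coding gene. The next peaks were 935 kb from Axin2 in 3T3-L1 and 788 kb in C3H10T1/2, so this site stood alone.

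The 4 nuclear effectors split into a pair with peaks and a pair without. Tcf7l1, the family member best known as a repressor, spans 163 kb on chromosome 6 (72626371 to 72789045, minus strand). Its body held 2 peaks of C3H10T1/2, from 72712032 to 72712212 (181 bp) and from 72740671 to 72740806 (136 bp), at 76.9 kb and 48.3 kb from the start. The second also lies in the lncRNA gene Gm31249. Neither was shared, and the nearest 3T3-L1 peak lay 110 kb and 139 kb from them. Of all protein-coding genes, whatever their length, 31 (0.143%) had at least 2 C3H10T1/2 peaks and no 3T3-L1 peak in the body. This pattern was counted after it was seen in Tcf7l1.

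The 3T3-L1 peak that places Tcf7l1 in the window sits in another gene. It ran from 72601870 to 72602012 (143 bp), 24.4 kb beyond the downstream end of Tcf7l1, inside Retsat (72598602 to 72607488), the retinol saturase gene, which promotes fat cell formation. Tgoln1 lies between that peak and Tcf7l1. The lines therefore had no site in common within 100 kb of Tcf7l1, which was not so at the other 5 genes with peaks of both lines.

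Tcf7l2, the effector most studied for its link to type 2 diabetes, spans 192 kb on chromosome 19 (55741797 to 55933659, plus strand). Its body held 1 peak of C3H10T1/2, 55769029 to 55769177 (149 bp), at 27.3 kb from the first start. The nearest 3T3-L1 peak to it was 253 kb away.

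Past the end of Tcf7l2, at 88.8 kb, the lines shared a site, with peaks from 56022331 to 56022565 in 3T3-L1 (235 bp) and from 56022380 to 56022503 in C3H10T1/2 (124 bp). This was the widest 3T3-L1 peak of the set, wider than 84.5% of its list, and the narrowest of C3H10T1/2, wider than 3.28%. No annotated gene holds it, and Tcf7l2 is the nearest protein-coding gene. Outside the window, 143 kb upstream and inside Vti1a, C3H10T1/2 alone had a peak of 319 bp.

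Tcf7, the family member that leads in T cells, and Lef1, its close relative in hair and limb development, had no peak in the window. The nearest to Tcf7 (chromosome 11, 52246527 to 52283383) was a C3H10T1/2 peak 164 kb upstream, and in 3T3-L1 it lay 294 kb away. Lef1 (chromosome 3, 131110297 to 131224357) had none closer than 579 kb, where both lines shared a site past Papss1. Over the 9 genes the median distance to the nearest peak was 79.6 kb in 3T3-L1 and 61.1 kb in C3H10T1/2. Over all protein-coding genes it was 588 kb and 743 kb. The genes were chosen by peaks near them, so nothing is read from this difference.

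Whether a site belongs to the Wnt gene or to a neighbour cannot be read from position. When each peak was given only to its nearest protein-coding gene, 3 of the 7 genes remained in 3T3-L1, which were Lgr4, Axin2 and Tcf7l2. In C3H10T1/2 4 of the 6 remained, the same 3 and Tcf7l1. The peaks near Fzd6, Fzd7 and Ryk all had a nearer gene.

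Most peaks of the set lay at sites common to the lines. Of the 10 peaks of 3T3-L1, 7 overlapped a C3H10T1/2 peak (70.0%, 95% exact Clopper-Pearson interval 34.8 to 93.3), where 22.4% of the whole list did. Of the 12 peaks of C3H10T1/2, 7 overlapped a 3T3-L1 peak (58.3%, interval 27.7 to 84.8), where 34.7% did. Among peaks within 100 kb of any protein-coding gene these shares were 22.3% and 34.7%. The intervals cover counting error only and treat peaks as independent, although some lie close together, as in the Fzd6 pair. Sharing was among the values used when the genes were chosen, so no test was made. For the same reason the shares of the whole lists are not read against the intervals. Lgr4 and Fzd6 each contribute 2 of the 7 shared sites, and Ryk, Axin2 and Tcf7l2 contribute 1 each.

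**Figure D2:**
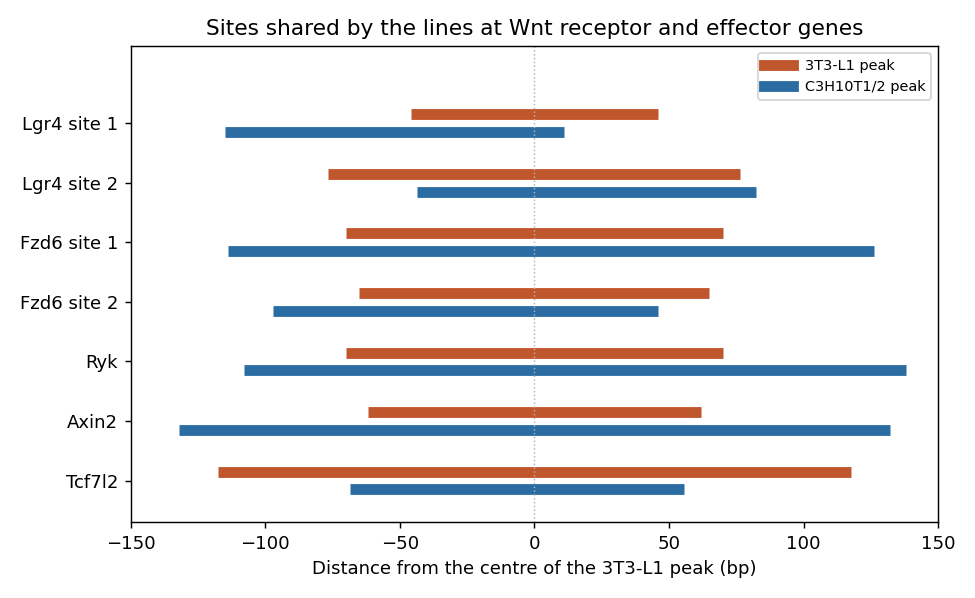
Extent of the peaks at the 7 shared sites within 100 kb of the genes, in bp from the centre of the 3T3-L1 peak; orange bars are 3T3-L1 peaks and blue bars C3H10T1/2 peaks. The Axin2 peaks share their centre exactly, the first Lgr4 site has the largest offset of 52 bp, and the Tcf7l2 and second Lgr4 sites are the ones where the 3T3-L1 peak is wider.

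At the shared sites the peaks of the lines overlap by definition, which by itself keeps the centres of narrow peaks close. The centres differed by 0 to 52 bp, where the median offset over all 548 shared 3T3-L1 peaks was 20 bp. The C3H10T1/2 peak was the wider one at 5 of the 7 sites, by 1.1 times at the upper Fzd6 site to 2.13 times at Axin2. It was narrower at the second Lgr4 site (0.824 times) and at Tcf7l2 (0.528 times). Over all shared sites it was wider at 68.4%, with a median ratio of 1.2.

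The peaks of the set were not wide. In 3T3-L1 they measured 83 to 235 bp with a median of 135 bp, and 2 of 10 exceeded the list's median of 144 bp. In C3H10T1/2 they measured 124 to 264 bp with a median of 140 bp, and 3 of 12 exceeded the list's median of 184 bp. The 5 peaks in gene bodies in C3H10T1/2 were 126 to 181 bp wide, all below that median. Shared peaks of the set had medians of 140 bp and 143 bp, against 173.5 bp and 205 bp for all shared peaks of these lists. Width was among the values used when the genes were chosen, so these comparisons are a description and were not tested. Width is the sole measure per peak that the lists offer, and it is not a measure of how strongly GATA2 was bound.

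**Figure D3:**
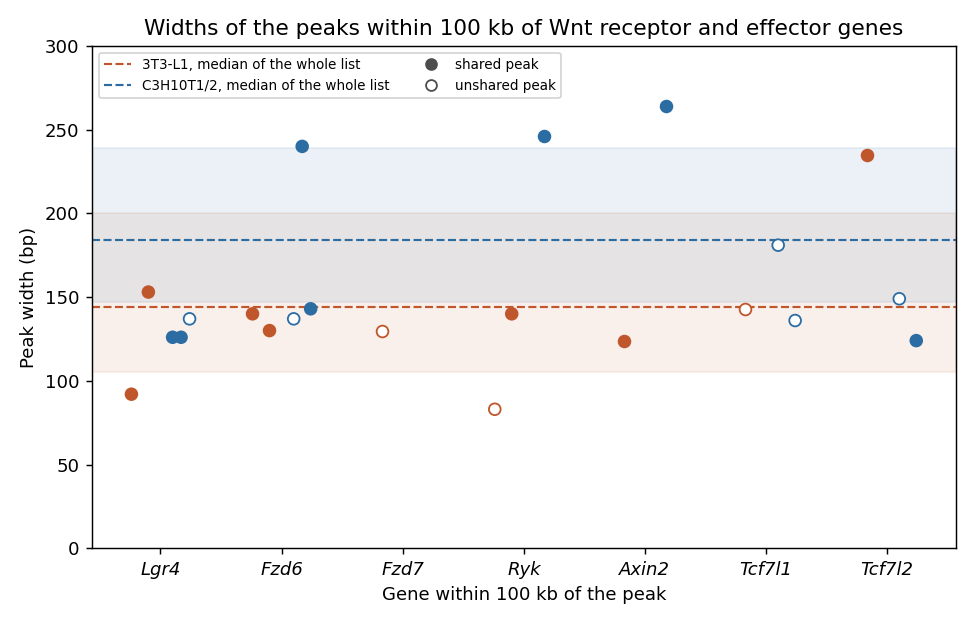
Width in bp of each peak within 100 kb of the 7 genes that have one; orange is 3T3-L1 and blue C3H10T1/2, filled circles are shared peaks, dashed lines are the medians of the whole lists and shaded bands their interquartile ranges. Most points lie below their list's dashed line; the exceptions are 1 Lgr4 peak and the Tcf7l2 peak in 3T3-L1, and 1 peak each at Fzd6, Ryk and Axin2 in C3H10T1/2.

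The rest of the pathway gives the scale for these 9 genes. Counted in 9 lists without the secreted Sfrp and Dkk antagonists, 74 pathway genes, the 9 among them, had a 3T3-L1 peak within 100 kb in 10 cases (13.5%) and a C3H10T1/2 peak in 15 (20.3%). The 65 other pathway genes had one in 3 cases (4.62%) in 3T3-L1 and in 9 cases (13.8%) in C3H10T1/2. Of all protein-coding genes 13.9% and 12.1% did. The 74 include the 9 genes chosen by their peaks and the 65 leave them out, so neither share is read against the background.

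The pathway lists hold few genes each, and no list was tested. A peak in the body was held by 2.79% (3T3-L1) and 2.59% (C3H10T1/2) of all protein-coding genes. Within 100 kb the shares were 13.9% and 12.1%. None of the 19 Wnt ligand genes had a peak within 100 kb in either line. R-spondin genes had none in 3T3-L1 and 2 of 4 in C3H10T1/2: Rspo2, which had 1 peak in its body (43123301 to 43123437 on chromosome 15) and another 3.95 kb beyond its higher coordinate, and Rspo3, with a peak 18.6 kb away. None of these 3 peaks was shared. R-spondins are the ligands of Lgr4.

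Among the receptors other than those of the set, Fzd1 and Fzd2 had a C3H10T1/2 peak within 100 kb, at 68.8 kb and 36.0 kb. Each of these peaks had another protein-coding gene nearer to it. The receptor tyrosine kinase gene Ror1, whose product binds Wnt5a, had 1 C3H10T1/2 peak in its body (100321984 to 100322113 on chromosome 4). Lrp5 and Lrp6, the co-receptors of Frizzleds, had none in either line.

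In the cytoplasmic machinery Dvl2, which relays the Frizzled signal, had a C3H10T1/2 peak 9.51 kb from the gene, and Gabarap was nearer to it. Of the 9 cofactor and corepressor genes 1 had a peak, and it had it in both lines. This was Tle1, a Groucho family corepressor that Tcf/Lef proteins recruit, with a shared site in its body on chromosome 4 (3T3-L1 peak 72195188 to 72195333, C3H10T1/2 peak 72195101 to 72195333). Of the feedback inhibitors Apcdd1, a membrane antagonist of Wnt signalling, had a 3T3-L1 peak 4.42 kb from the gene. Further out lay single unshared peaks. Those of C3H10T1/2 were 81.4 kb from the casein kinase gene Csnk1a1 and 37.0 kb from the Wnt deacylase gene Notum. That of 3T3-L1 was 82.6 kb from Nkd1, whose product binds Dishevelled. Each of these single peaks had another protein-coding gene nearer to it.

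**Figure D4:**
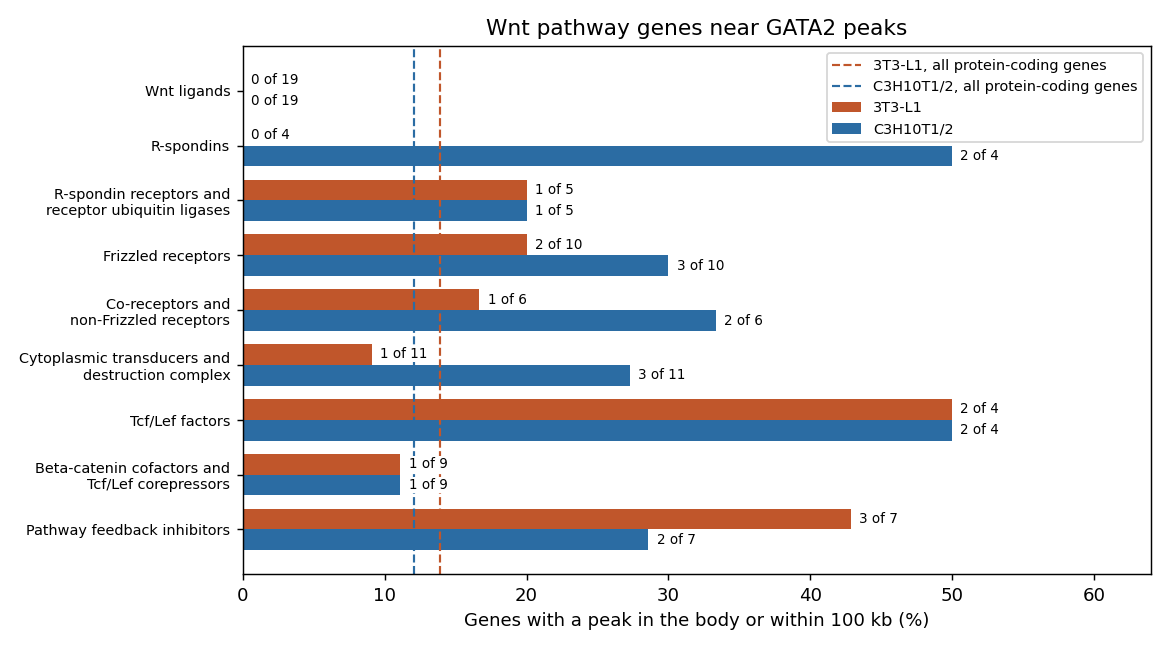
Share of the genes of each Wnt pathway list with a GATA2 peak in the body or within 100 kb, in percent, with the counts beside the bars; orange is 3T3-L1, blue C3H10T1/2, and dashed lines mark the shares of all protein-coding genes, 13.9% and 12.1%. The ligand list is at 0 in both lines, the R-spondin list is at 0 in 3T3-L1 and 2 of 4 in C3H10T1/2, and the Tcf/Lef list is at 2 of 4 in each line.

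Genes with the same peak counts as these were looked for among the protein-coding genes outside the 74 pathway genes, so no other pathway gene could appear. Likeness was the city-block distance over 5 counts in the 2 lists: peaks of each line in the body or 10 kb flank, peaks of each line from there to 100 kb, and shared 3T3-L1 peaks. No gene matched Lgr4 exactly, and Rgs13 and Tln2 came closest at a distance of 1, lacking its C3H10T1/2 peak in the outer window. Tcf7l1 was matched by 2 genes, Il17rd and Psd3, and Fzd6 by 4, of which Mios and 4930558K02Rik were closest in length.

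The other patterns had more matches. Tcf7l2 was matched by 18 genes, with Map3k5 and Pkd1l1 closest in length, and Ryk by 43, with Anapc1 and Igf1 closest. The pattern of Axin2, 1 shared site between 10 and 100 kb and nothing else, was found at 554 genes outside the pathway lists. Ywhae and Zfp362 were closest to it in length. The counts compared are among the values the genes were chosen by, so the numbers of matches are a description and were not tested.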

How the data were processed

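The deposited files hold 1 list of GATA2 peaks per cell line with chromosome, start and end in bp and no score, height or p column, so no other unit of the authors was used. The submitters' processing notes name mm10 as the build, and MACS2, Bowtie2, bedtools, SAMtools and CASAVA 1.8 as tools. Their settings, the use of input and the way the 2 ChIP libraries of a line were combined are not given in the sources used here, and these choices decide which weak sites appear and how wide peaks are.

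Starts were turned to counting from 1. Genes were the 21631 protein-coding genes on chromosomes 1 to 19 and X in the RefSeq table of GRCm38.p6 (the mm10 assembly), and all 9 members and 74 pathway symbols matched. The table gives no exons, so exonic and intronic positions are not stated. A peak counted for a gene when its centre lay in the body or within 10 or 100 kb of it, and was shared when at least 1 bp of it lay within a peak of the other line. Transcript starts and strands came from the RefSeq promoter table, and the 250 bases before a start were searched. Intervals are 95% exact Clopper-Pearson intervals for counting error.

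All 9 members are named. Like genes are the 2 outside the pathway lists with the smallest distance and then the closest length. Other pathway genes are named where a peak lies in the body or within 10 kb. Rspo3, Fzd1, Fzd2, Lrp5, Lrp6, Csnk1a1, Notum and Nkd1 fall outside that rule and were chosen after their values were seen. The members and lists were chosen with earlier results of these data known. Nothing was tested, because the peaks chose the members and each line has 1 list. The assignment was checked on simulated peaks. Python 3.11.15, pandas 2.3.3 and SciPy 1.17.1 were used.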

Additional observations from a re-analysis of the deposited data

How the results depend on the processing

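Of 32 alternatives, 20 kept their value within 1.5 times the reported count or, for shares, within its interval, and 12 did not. Peaks of at least their list's median width were also taken alone. This is a cut by width and does not show what a stricter calling threshold would leave, since the lists hold no score. The genes with a peak within 100 kb fell to 2 in 3T3-L1 (Lgr4 and Tcf7l2) and 3 in C3H10T1/2 (Fzd6, Ryk and Axin2). Those with a C3H10T1/2 peak in the body or within 10 kb fell to 0, while the 1 gene in 3T3-L1, Lgr4, stayed. Shared peaks fell to 0 in each line. The last follows from narrowing both lists at once: at each shared site at least 1 of the peaks is below its list's median. A window of 50 kb left 2 genes in 3T3-L1 and 3 in C3H10T1/2. The nearest gene alone left 3 in 3T3-L1. Among genes in the span range of the members, 14.5% had a 3T3-L1 peak and 12.7% a C3H10T1/2 peak within 100 kb. An overlap of 50% of both peaks left 5 shared peaks in each line. Distances from the peak's edge, 100 kb windows drawn from the gene boundaries, and leaving out dense blocks (runs of at least 8 peaks with gaps of at most 20000 bp) changed no count of these genes. A 10 kb window drawn from the boundaries alone, added after seeing the data, left 0 genes in each line, down from 1 in 3T3-L1 (Lgr4) and 3 in C3H10T1/2 (Lgr4, Tcf7l1 and Tcf7l2), since it leaves out peaks deeper inside a gene.

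No paired analysis was possible because each line has 1 list and the replicate libraries have no values of their own here. Leaving out a replicate was not run for the same reason. Read depth is unknown.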
